A study of Homo sapiens with 16 samples.

Results

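Chromatin regulators are the proteins that read, write, erase or move the marks and nucleosomes that package DNA. Here they are the genes of an Ago2 binding table whose names begin as those of the CBX, PHC, PCGF, EZH, SUZ12 and JARID2 genes, the KDM, MLL and SETD genes, the SMARC, ARID, CHD and BRD genes, or the HDAC, DNMT, TET, HMGB and HMGN genes do, leaving out 1 ARID gene. The rule used names and no measured value. It found 37 of the 2213 genes in the table, and 11 of the 37 were Polycomb genes. One member goes against the label: MLLT4 was taken in by its name, but it encodes afadin, a protein of cell junctions.

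The study treated 293S cells, an established line derived from human embryonic kidney and grown as an adherent monolayer. Cells received no treatment or 1 µM hippuristanol for 30 min, with 2 cultures of each kind. Hippuristanol inhibits eIF4A, the RNA helicase that unwinds mRNA leaders so that ribosomes can load. Each culture was divided for RNA-seq and for CLIP with Ago2 antibodies from 3 suppliers, which gave 6 CLIP libraries per treatment. In CLIP, protein and RNA are crosslinked in the cell, the protein is precipitated and its RNA is sequenced. For each Ago2 peak, the table gives 1 log average over both treatments and 1 log ratio of hippuristanol over untreated cells, with no value per library. Which libraries entered these values, and how they were combined, is not stated in any source used here. Cultures and antibodies therefore cannot be compared, no difference has a replicate check, and no p-value is given. The depth of the libraries is unknown, and no source used here states the log base, so values are in the authors' log units and are not folds. RNA-seq values were not analysed here, so more Ago2 per transcript and more transcript cannot be told apart. Among 8 genes described in HEK293 cells, LHX1, NEFL and LIN28B had peaks, and PAX2, EYA1, NEFM, INA and SOX2 had none. None of 12 markers of other cell types had a peak. The share of all coding genes with a peak was not counted, so these counts do not show the identity of the cells.

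Polycomb proteins keep developmental genes silent. Polycomb repressive complex 2 (PRC2) contains the methyltransferase EZH1 or EZH2 with SUZ12 and, in a variant form, JARID2, and it methylates histone H3 on lysine 27. Polycomb repressive complex 1 (PRC1) contains a PCGF protein, and its canonical form adds a CBX protein that reads the methyl mark and a PHC protein. Argonaute 2 (Ago2) carries microRNAs to target mRNAs, most often to the 3′ untranslated region (3′ UTR), where bases 2 to 8 of the microRNA, the seed, pair with the target. Several chromatin regulators, EZH2 and CBX2 among them, are described microRNA targets.

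Mature microRNAs of the 3 families on which the sequence comparisons below turn are shown first, from RefSeq (GRCh38.p14), with the seed in capitals. They are let-7, whose matches divided the Polycomb genes with a 3′ UTR peak by log ratio, miR-15/16, whose matches were frequent in Polycomb genes, and miR-30, whose matches were frequent in the other regulators.
hsa-let-7a-5p: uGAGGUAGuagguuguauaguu
hsa-miR-16-5p: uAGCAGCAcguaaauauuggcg
hsa-miR-30a-5p: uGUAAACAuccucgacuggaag
The next 5 are the let-7 matches in the annotated 3′ UTRs of the Polycomb genes with a 3′ UTR peak, read from GENCODE 29 transcripts with the match to the seed in capitals and its position counted from the first base of the 3′ UTR.
CBX2 positions 224 to 230: tctccaccttgttcCTACCTCt
EZH1 positions 548 to 554: gacaggtcaccttaCTACCTCc
PCGF3 positions 1779 to 1785: taaatattacctgtCTACCTCa
PHC3 positions 3905 to 3911: agggcctcatctcaCTACCTCt
PHC3 positions 4707 to 4713: cagtaaacacaagcCTACCTCt
A match is a stretch of letters in the annotated transcript. Whether it lies inside an Ago2 peak was not tested, because the peaks are on hg19 and the transcripts on GRCh38.

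Ago2 lay on the Polycomb mRNAs almost entirely in the 3′ UTR, and on the other regulators also in coding sequence (CDS). The 37 genes had 86 peaks with distinct values, with listed lengths from 20 to 98 nt (median 39.5 nt). Of the 27 peaks of Polycomb genes, 26 (96.3%, exact Clopper-Pearson 95% interval 81.0% to 99.9%) were annotated to 3′ UTRs, the one in EZH2 to the 5′ UTR, and none to CDS (upper limit 12.8%). Of the 59 peaks of the other regulators, 38 (64.4%, interval 50.9% to 76.4%) were in 3′ UTRs and 20 (33.9%, interval 22.1% to 47.4%) in CDS. The CDS peaks came from 12 of the 26 other regulators and from none of the 11 Polycomb genes. Of all 2213 genes of the table, noncoding ones included, 694 had a CDS peak. With 11 genes, the absence in Polycomb genes rests on few. Over all 4028 peaks of the table in mRNAs, 71.8% were in 3′ UTRs and 23.6% in CDS. The intervals treat peaks as independent, which peaks of 1 gene are not.

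Several groups that the rule names had no peak in the table used here. None of the 11 HDAC deacetylase genes, the 4 DNMT and 3 TET genes of DNA methylation or the 5 HMGN nucleosome-binding genes that RefSeq lists under those names was there. Of 14 PRC1 names looked for, 7 had a peak. PCGF4, among the 14, is another name of BMI1, which was also looked for under that name and had no peak. All 4 PRC2 names that the rule holds, EZH1, EZH2, SUZ12 and JARID2, had one. EED and RBBP4, PRC2 subunits that the rule does not name, had no peak, and RBBP7 did. What share of all coding genes had a peak was not counted. These counts therefore cannot be read as a lack or an excess of peaks in any group.

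Polycomb genes carried a higher Ago2 log average than the other chromatin regulators. The median over genes was −5.81 for the Polycomb genes (quartiles −6.55 and −5.15) and −7.70 for the others (quartiles −8.18 and −6.67), a difference of 1.89, against −6.30 over all 2213 genes. Of the 11 Polycomb genes, 7 lay above the median of all genes, and of the 26 others 5 did. EZH1 was the highest Polycomb gene at −4.56, above 84.0% of all genes, and CBX6 (−4.90), PHC2 (−5.09) and CBX2 (−5.22) followed. EZH2, the other catalytic subunit of PRC2, was the lowest at −8.05, above 9.44% of all genes. Among the other regulators, KDM6B, a demethylase that removes the PRC2 mark, was the highest at −4.03, above 88.8% of all genes. ARID3A, a DNA-binding protein with an ARID domain, followed at −4.73. The difference was 2.01 with 3′ UTR peaks only, so it was also there when CDS peaks were left out. How far the log average depends on the abundance of each mRNA was not stated in any source used here.

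**Figure D1:**
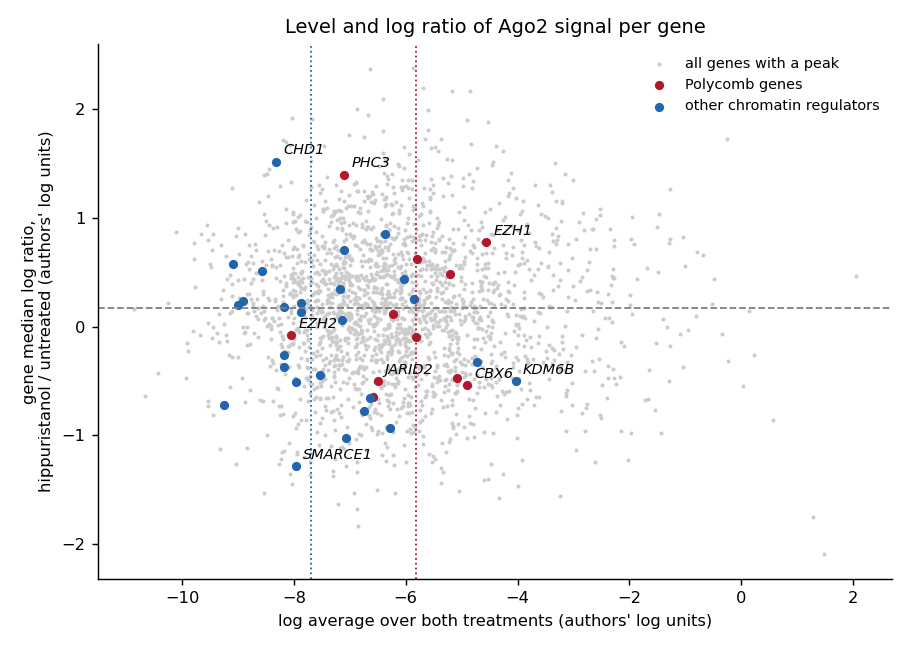
Each point is a gene, with its median log average over both treatments on the x axis and its median log ratio of hippuristanol over untreated on the y axis, both in the authors' log units; grey points are all 2213 genes, the dotted vertical lines the medians of the Polycomb genes (−5.81) and the other regulators (−7.70), and the dashed line the median gene (0.17). The Polycomb genes lie to the right of most other regulators, and both groups spread above and below the dashed line.

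The log ratios of the chromatin regulators had a median a little below that of all genes. A gene's value is the median of its peaks, and the median over all 2213 genes, 0.17, is used as the level of an average gene. The median over the 37 members was 0.06 (quartiles −0.50 and 0.44), against quartiles of −0.28 and 0.58 over all genes. A 95% interval of the members' median, taken from ranks, ran from −0.44 to 0.24 and thus held the level of 0.17. It treats genes as independent and does not measure the spread between cultures. This level was exceeded by 16 of the 37, where 50% of all genes do. More than 0.5 below it lay 14 members, or 37.8%, where 22.1% of all genes do, and more than 0.5 above it lay 5, or 13.5%, where 21% of all genes do. Counted by peak, 8 of the 86 (9.30%) had a log ratio below −1, against 4.22% of all peaks, and 8 (9.30%) had one above 1, against 11.3%. Without the genes that had 1 peak, the median of the remaining 21 members was 0.0062 above that of all such genes, so the lower median was not there without the 16 members with 1 peak.

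The Polycomb genes and the other regulators did not part by their log ratios. The median was −0.08 for the 11 Polycomb genes (range −0.64 to 1.40) and 0.10 for the 26 others (range −1.28 to 1.51), and the Polycomb range lay inside that of the others. The level of an average gene was exceeded by 4 of 11 Polycomb genes and 12 of 26 others. The difference of −0.17 changed sign to 0.038 with 3′ UTR peaks only and to 0.19 without the 25% of peaks with the lowest log averages. More than 0.5 below the level lay 4 of the 11 and 10 of the 26.

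**Figure D2:**
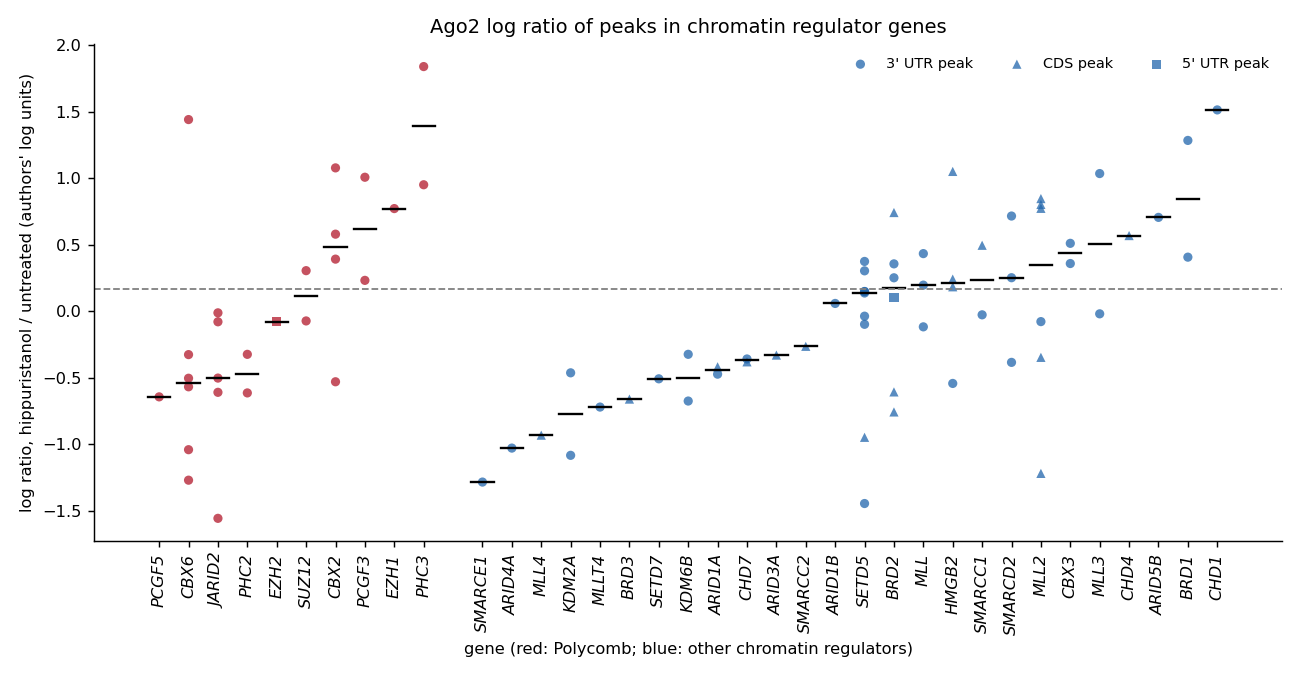
Log ratio of hippuristanol over untreated for the 85 peaks of 36 of the 37 genes (y axis, authors' log units) by gene (x axis), with Polycomb genes in red and the others in blue; circles, triangles and squares are 3′ UTR, CDS and 5′ UTR peaks, black bars gene medians, and the dashed line the level of an average gene (0.17). Gene medians run from −0.64 (PCGF5) to 1.40 (PHC3) in Polycomb genes and from −1.28 (SMARCE1) to 1.51 (CHD1) in the others, and no Polycomb gene has a triangle.

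Within PRC2, the 2 catalytic subunits had different values. EZH1 had 1 peak, in the 3′ UTR (chr17:40852321-40852357, minus strand, hg19), for which the authors' deposited table lists 0.77. EZH2 had 1 peak, in the 5′ UTR (chr7:148580406-148580434, minus strand), with −0.08 in the authors' deposited table. The EZH1 value was above that of 83.6% of genes and the EZH2 value above that of 34.7%, but each rests on a single peak, and they lie in different parts of the mRNA. SUZ12, the scaffold of PRC2, had 2 peaks 344 nt apart with −0.07 and 0.31 in the authors' deposited table, and its median of 0.12 was close to the level of an average gene. JARID2, an accessory subunit that helps PRC2 onto chromatin, had 5 peaks in its 3′ UTR, and all 5 lay below 0. From 5′ to 3′ they had −0.01, −0.08, −0.50, −1.56 and −0.61 in the authors' deposited table, and the lowest was at chr6:15520804-15520830 (plus strand). The first 2 overlap, so they share reads and are not separate measurements. Without them the 3 remaining peaks of JARID2 were all at −0.50 or lower.

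Among the CBX genes that encode readers of PRC1, CBX2 and CBX6 lay on opposite sides of the level. CBX2 had 4 peaks, with 1.08, 0.58, 0.39 and −0.53 from 5′ to 3′ in the authors' deposited table, and a median of 0.49. The first lay 5053 nt from the next in the genome and was annotated to another transcript of the gene. Those with 0.58 and 0.39 overlap. The last, 36 nt beyond them, was the one peak of CBX2 below the level of an average gene. CBX6 had 6 peaks and a median of −0.53, and 5 of the 6 were below 0. The first 2, with −0.33 and −1.04, overlap, so they share reads and are not separate measurements. The lowest, at chr22:39260394-39260475 (minus strand), had −1.27 in the authors' deposited table, and it was also the peak of CBX6 with the highest log average, −4.05. Its neighbour 50 nt further 3′, at chr22:39260288-39260344, had 1.44 in the authors' deposited table. These 2 neighbours thus differed by the whole range of the gene, 2.71, which was the widest range in any member.

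The other PRC1 genes divided likewise. PHC3 had the highest median of the Polycomb genes, 1.40, from 2 peaks 134 nt apart with 0.95 and 1.84 in the authors' deposited table (the higher at chr3:169805526-169805594, minus strand). Its paralogue PHC2 had 2 overlapping peaks with −0.32 and −0.61 in the authors' deposited table, a median of −0.47. PHC proteins join PRC1 complexes into larger assemblies. Of the PCGF genes, which set the type of PRC1, PCGF3 had 2 peaks with 0.23 and 1.01 in the authors' deposited table, both above the level of an average gene. PCGF5, which forms the same kind of variant PRC1 as PCGF3, had 1 peak with −0.64 in the authors' deposited table. Both PHC2 peaks thus lay below and both PHC3 peaks above the level, and the same held for the PCGF5 peak and the PCGF3 peaks.

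**Figure D3:**
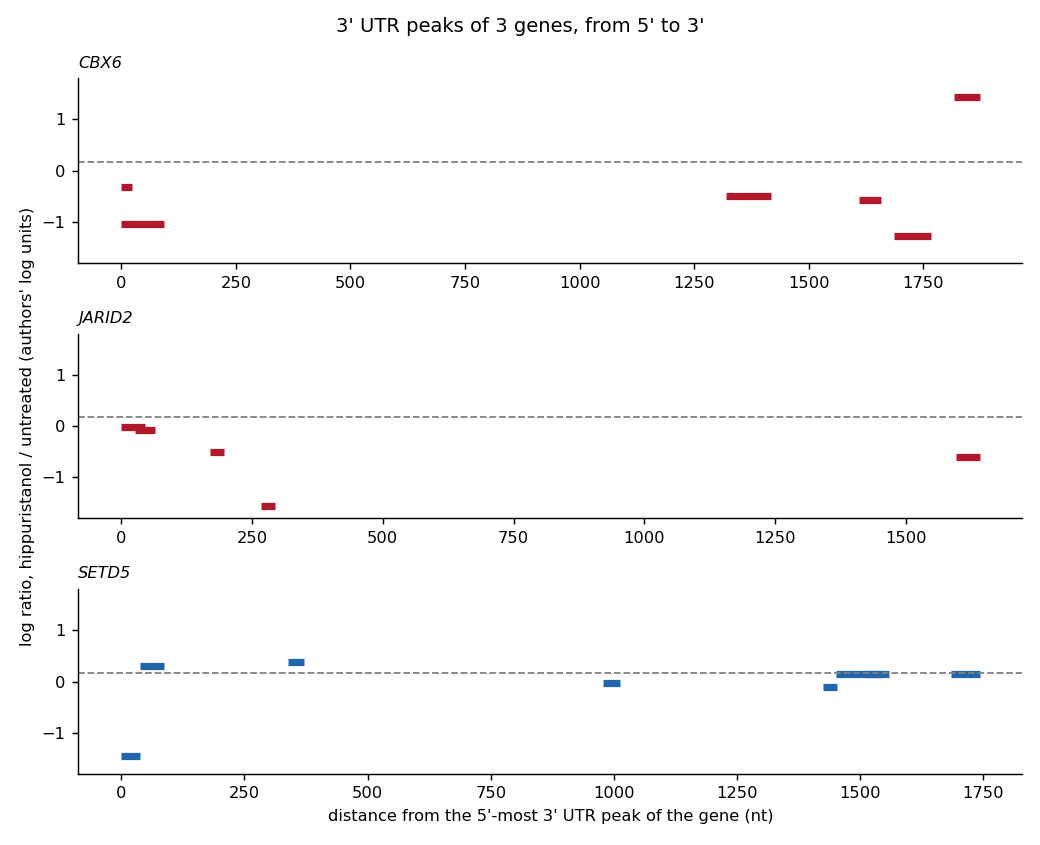
Each bar is a 3′ UTR peak, drawn from its first to its last base as the distance in nt from the 5′-most 3′ UTR peak of the gene (x axis) at its log ratio of hippuristanol over untreated (y axis, authors' log units); the dashed line is the level of an average gene (0.17). All 5 peaks of JARID2 and 5 of 6 peaks of CBX6 are below the line, and in both genes the first 2 peaks overlap. The last CBX6 peak is at 1.44, and SETD5 has 1 peak at −1.44 beside others near the line.

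The let-7 matches shown above were in the 4 Polycomb genes with high log ratios. Of the 10 Polycomb genes with a 3′ UTR peak, CBX2 (gene median 0.49), PCGF3 (0.62), EZH1 (0.77) and PHC3 (1.40) had a let-7 match. The 6 with none ran from −0.64 to 0.12, among them SUZ12 (0.12), PHC2 (−0.47), JARID2 (−0.50), CBX6 (−0.53) and PCGF5 (−0.64). The 4 and the 6 did not overlap, and their medians differed by 1.18. EZH2, whose peak is in the 5′ UTR, had a match in its 3′ UTR and a gene median of −0.08, so the division does not hold when it is counted. The pattern was picked from 8 microRNA families after the values were seen, and it is a description. Over all 1511 genes with a 3′ UTR peak and an annotated 3′ UTR, the median was 0.23 for the 190 (12.6%) with a let-7 match and 0.17 for those without, a far smaller difference. Among the other regulators, 3 of 21 had a match, MLL2 (0.35), SMARCC1 (0.24) and MLLT4 (−0.72). Length moved with the match in part. The 3′ UTRs with a match were 2257 nt (EZH1), 2941 nt (CBX2), 4561 nt (PCGF3) and 9646 nt (PHC3) long. Those without included SUZ12 (2042 nt), JARID2 (1789 nt) and PHC2 (1239 nt), all shorter than that of EZH1. They also included CBX6 at 4759 nt and PCGF5 at 6013 nt. The part of length in the pattern was not tested.

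**Figure D4:**
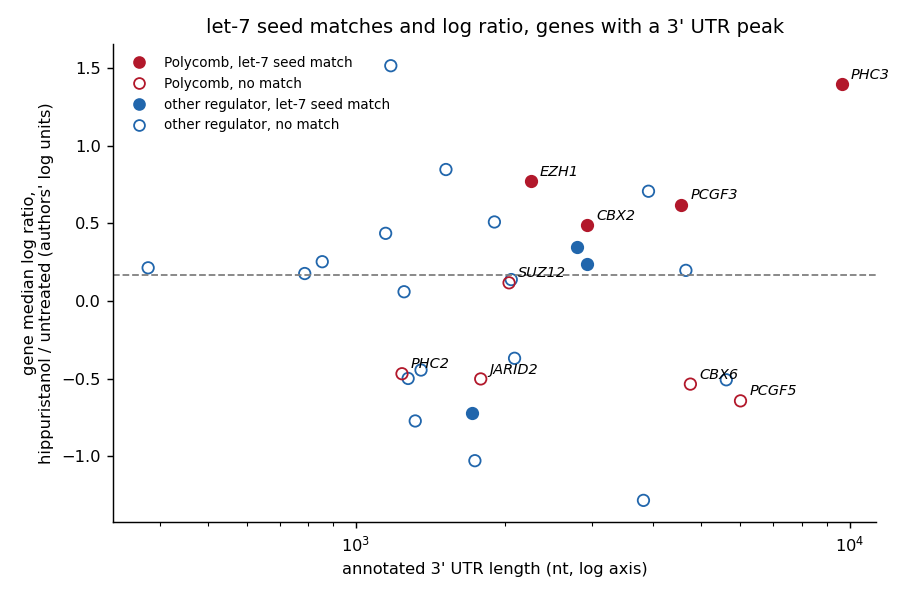
Each circle is a chromatin regulator with a 3′ UTR peak (30 of the 31 are drawn), at the length of its annotated 3′ UTR (x axis, nt, log axis) and its median log ratio of hippuristanol over untreated (y axis, authors' log units); filled circles have a let-7 seed match, red is Polycomb, blue the others, and the dashed line the level of an average gene (0.17). The 4 filled red circles lie between 0.49 and 1.40 and the 5 open red circles between −0.64 and 0.12, while the 3 filled blue circles lie between −0.72 and 0.35.

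Matches to 2 other families were frequent, without such a division. A 7-nt match to the miR-15/16 seed, TGCTGCT in the transcript, was in 8 of the 10 Polycomb 3′ UTRs and in 6 of 21 of the other regulators, where 34.3% of all 1511 genes have one. The Polycomb genes had 0.361 such matches per kb of 3′ UTR against 0.221 over all genes, and their 3′ UTRs were longer (median 2599 nt against 1641 nt). CBX6 and PCGF5 had 3 each, EZH1 had 2, and PHC2 and PCGF3 had none. A match to the miR-30 seed, TGTTTAC, was in 17 of 31 members and in 13 of the 21 that are not Polycomb, where 27.3% of all genes have one. That was 0.286 per kb in the members and 0.158 over all genes. Members with and without a miR-30 match had medians of 0.20 and 0.09, and Polycomb genes with and without a miR-15/16 match 0.01 and 0.08. The remaining families searched, in the same way and on the transcript strand only, were miR-17 (GCACTTT), miR-19 (TTTGCAC), miR-92 (GTGCAAT), miR-26 (TACTTGA) and miR-101 (GTACTGT), of which the first pair can overlap. Of these, miR-17 matches were in 9 of the 31 members and miR-101 matches in 7, where 33.1% and 17% of all genes have one. Matches to miR-19 were in 6 and to miR-26 in 2, where 27.0% and 18.3% of all genes have one. Matches to miR-92 were in 5, where 19.4% of all genes have one. Some of these families also split the log ratios, so let-7 was not alone in this. The median of members with a miR-19 match was −0.52 and without one 0.20, and for Polycomb genes −0.50 (3 genes) and 0.49 (7 genes). For miR-17 it was −0.50 and 0.16 in members, but 0.77 (3 genes) and −0.09 (7 genes) in Polycomb genes, in the opposite direction. Over all 1511 genes these medians were 0.19 with and 0.18 without a miR-19 match, and 0.20 and 0.17 for miR-17. For miR-101 the member medians were −0.44 with and 0.20 without a match, against 0.27 and 0.16 over all 1511 genes.

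The MLL and SETD genes, grouped by name, spread on both sides of the level. These genes, 6 in all, had a median of 0.17, with 3 above and 3 below the level of an average gene. MLL2 (now KMT2D), which marks enhancers, had 6 peaks from −1.22 to 0.85 in the authors' deposited table, 5 of them in CDS. Its 3 highest, between 0.77 and 0.85, and its lowest were all CDS peaks. With only 1 peak outside CDS, the classes could not be compared within the gene. MLL4 (now KMT2B) had 1 CDS peak with −0.93 in the authors' deposited table, among the 5 lowest members. SETD5 had the most peaks of any member, 9, with a median of 0.14. Its 8 peaks in the 3′ UTR included one of −1.44 in the authors' deposited table at chr3:9517758-9517796 (plus strand) that ends where the next, of 0.30, begins. The other 6 of these lay between −0.10 and 0.38.

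Both demethylases had low values. KDM2A, which acts on methylated lysine 36 of histone H3, had 2 peaks with −0.46 and −1.08 in the authors' deposited table, and its median of −0.77 was above that of 7.14% of genes. KDM6B had 2 peaks with −0.67 and −0.32 in the authors' deposited table, and a median of −0.50. All 4 peaks were in 3′ UTRs and below 0, though 2 genes do not describe a family.

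The remodellers of nucleosomes held both extremes among the members. SWI/SNF genes, 6 in all, had a median of −0.10 and a range from −1.28 to 0.25, with 2 above the level of an average gene. SMARCE1, a subunit with an HMG domain, had the lowest value of all members from 1 peak, −1.28 in the authors' deposited table (chr17:38784733-38784761, minus strand). SMARCD2 had 3 peaks, with 0.25, 0.72 and −0.38 from 5′ to 3′ in the authors' deposited table, and the last 2 overlap. ARID1B, a DNA-binding subunit, had 1 peak with 0.06 in the authors' deposited table. CHD1, a remodeller of transcribed genes, had the highest value of all members from 1 peak, 1.51 in the authors' deposited table (chr5:98191512-98191542, minus strand). CHD7 had 2 peaks with nearly the same value, and a median of −0.37. SMARCE1 and CHD1 had log averages of −7.97 and −8.32, above 11.0% and 6.60% of genes, so both extremes come from single peaks of low log average.

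Genes of other ARID, BRD, HP1 and HMGB proteins completed the set. ARID4A, a partner of the retinoblastoma protein, had 1 peak with −1.03 and ARID5B 1 peak with 0.71 in the authors' deposited table, and that of ARID3A had −0.33. BRD1, a scaffold of histone acetyltransferases, had 2 peaks with 1.28 and 0.41 in the authors' deposited table, and its median of 0.85 was exceeded only by CHD1 and PHC3 among the members. BRD2, a bromodomain protein of the BET family, had 6 peaks from −0.76 to 0.74 in the authors' deposited table with a median of 0.18, near the level. BRD3, its relative, had 1 CDS peak with −0.66 in the authors' deposited table. CBX3 (HP1 gamma), which reads methylated lysine 9 of histone H3 and is no Polycomb protein, had 0.51 and 0.36 in the authors' deposited table, both above the level. HMGB2, a DNA-bending protein, had 4 peaks from −0.54 to 1.05 in the authors' deposited table and a median of 0.21. Genes of the HMGB group have pseudogenes that may share reads, so its value is uncertain. MLLT4, the junction protein, had 1 peak with −0.72 in the authors' deposited table, and without it the median of the members was 0.08 below that of all genes, against 0.11 with it.

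Peaks of the same member often lay on different sides, as peaks of the same gene did over all genes. Among the 21 members with 2 or more peaks, 11 had peaks both above and below the level of an average gene, 4 had all above and 6 all below. Over all 750 genes with 2 or more peaks, 61.2% had peaks on both sides. How the rest of the 750 divided into all above and all below was not counted. In the 12 members with exactly 2 peaks the log ratios differed by a median of 0.45, and in all 393 such genes by 0.54. All above were PHC3, PCGF3, CBX3 and BRD1, and all below were JARID2, PHC2, KDM2A, KDM6B, ARID1A and CHD7.

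Genes of the same pathways that the rule does not name had higher medians than the members did. Of 39 other Polycomb genes looked for, 8 had a peak, with a median of 0.23. The level of an average gene was exceeded by 5 of the 8, where 50% of all genes do. YAF2, a PRC1 subunit that binds RING proteins, had 0.25, AEBP2, a PRC2 cofactor, 0.22, AUTS2, of a variant PRC1, 0.79, and CSNK2A1, a casein kinase 2 subunit of the same variant, −0.33 as gene medians. Of 70 other chromatin genes looked for, 17 had a peak, with a median of 0.32 and 10 above the level. More than 0.5 above the level lay 2 of the 8 and 5 of the 17, where 21% of all genes did. KAT2B, an acetyltransferase, had 0.26, SUV420H2, a histone H4 methyltransferase, −0.21, HMGA2, a described let-7 target, 0.32, and TRIM28, a corepressor, 0.63 as gene medians. None of these 8 and 17 genes lay more than 0.5 below the level, where 14 of the 37 members and 22.1% of all genes did. That count depends on the distance chosen, since CSNK2A1 at −0.33 and DCAF7, an adaptor of a variant PRC1, at −0.30 lay just inside it (DCAF7 was named after its value was seen). The difference between the sets was not tested.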

How the data were processed

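Ago2 CLIP and RNA-seq libraries of untreated and hippuristanol-treated 293S cells were described in the labels, 12 and 4 of them. The deposited table holds 4768 peaks with 2 scores, a log average and a log ratio, that the authors normalized, per the file headers, with no value per library. The submitters' processing notes name hg19, Bowtie 0.12.8, TopHat and DESeq without roles or order. No source used here states the peak caller, filters, log base, normalization or how libraries were combined, or whether starts count from 0 or 1, and coordinates are printed as listed.

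Pairs of peaks of 1 gene with identical values, 50 in all and 3 in the members, were counted once, which left 4718 peaks. Genes with several peaks were given the median. Without values per library, no test was run. Seed matches (7 nt) were searched in the longest 3′ UTR of the GENCODE 29 transcripts matched by RefSeq identifier (1481 genes, 30 of the 31 members) or symbol (30 genes), and 26 genes with a 3′ UTR peak had no such transcript. Named genes were all Polycomb members (1 is counted but not reported here), members with 4 or more peaks, the 2 with the highest log average per family, the 5 highest and 5 lowest medians, and the 4 with the highest log average of each outside list. ARID1A and SMARCC1 fall outside it and were named after their values were seen. Members and lists were chosen with earlier results of these data known. The scripts (Python 3.11.15, pandas 2.3.3, scipy 1.17.1) were tested on simulated data.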

Additional observations from a re-analysis of the deposited data

How the results depend on the processing

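The median of the members was below that of all genes as reported (difference −0.11) and under 8 of 9 alternatives (−0.27 with the peak of highest log average per gene to −0.08 without MLLT4), and above it by 0.0062 without genes with 1 peak. The Polycomb median minus that of the other regulators, −0.17 as reported, was 0.11 with the peak of highest log average per gene, 0.038 with 3′ UTR peaks only and 0.19 without the 25% of peaks with the lowest log averages, and between −0.19 and −0.0057 under the 8 other alternatives. With a distance of 0.3 in place of 0.5, 9 members lay above in place of 5 and 16 below in place of 14, where 30.7% and 31.3% of all genes did. With a distance of 1, 2 of the 37 lay above and 3 below, where 5.69% and 5.87% of all genes did, so the low side then stood close to that of all genes. The share of member peaks in 3′ UTRs was 84.7% without these 25%, against 74.4%. The higher log average of the Polycomb genes kept its direction under 4 alternatives, and the difference of medians by let-7 match under 6, all chosen after the data were seen, but with EZH2 counted the genes with and without a match overlapped. Counting KDM2B as Polycomb was not run, because it had no peak. No replicate could be left out, and no paired analysis was possible because there is no value per culture. Depth is unknown, so counting error could not be given.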

Other observations

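The 2 peaks of SUZ12 differed widely in level. Their log averages were −7.47 and −4.99 in the authors' deposited table, a difference of 2.47, although they lie 344 nt apart in the same 3′ UTR. Of the 393 genes with exactly 2 peaks, 6 (1.53%) had a difference as large. The log ratios of the same SUZ12 peaks, −0.07 and 0.31 in the authors' deposited table, differed by 0.38. In MTF2, a PRC2 cofactor outside the naming rule, 4 peaks ran from −0.83 to 0.90 in the authors' deposited table around a median of 0.72. ASH1L, a histone H3 methyltransferase, had 3 peaks that were all above the level of an average gene, from 0.57 to 1.68 in the authors' deposited table. MTF2 and ASH1L were chosen after their values were seen.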
